A study of Mus musculus with 24 samples.

Results

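Nucleolar ribosome biogenesis genes are the genes whose proteins transcribe ribosomal RNA in the nucleolus and turn it, with the ribosomal proteins, into the small and the large ribosomal subunit. A list of 40 such genes was followed across the cultures of the series, Myc included, a transcription factor known to raise many of them. All probe sets annotated to a listed gene alone were collected on both array designs, and each gene was read from the one with the highest mean over 12 arrays, with the design labelled MA preferred. In this way 39 of the 40 genes were read, 37 on MA and 2 (Dkc1 and Nob1) on the design labelled MB, out of 18193 genes with a probe set of their own. Npm3, a small relative of nucleophosmin, was not analysed here. All 39 lay above the intensity minimum for testing, as did 12135 genes of the whole series.

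Ribosome production starts when RNA polymerase I copies the ribosomal DNA repeats into a long precursor. Small nucleolar RNAs, held in protein particles of the box C/D and box H/ACA types, guide methylation and pseudouridine formation on that precursor, and large assemblies of processing factors cut and fold it. The work is costly to a cell and is closely tied to growth. In muscle lines it is known to be high in dividing myoblasts, and new ribosomes are also made when muscle fibres enlarge.

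The cells were C2C12, an established mouse myoblast line that leaves the cell cycle and fuses into myotubes when serum is withdrawn. The 4 groups, in total RNA from 3 cultures each, were DM with 5 mM glucose, DM with 25 mM glucose, GM with 5 mM glucose and GM with 25 mM glucose, and each culture was hybridised to both designs, giving 24 arrays. The labels give the media only as DM and GM, which in this line usually mean differentiation and growth medium, and they name no serum, culture time, passage or length of exposure to glucose. The series asks whether restricting calories alters how myoblasts differentiate. DM against GM at each glucose level shows the change with medium, 5 mM against 25 mM in each medium shows the change with glucose, and the interaction compares those glucose changes between the media.

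The labels number the cultures 1 to 3 without saying how they were kept apart, so each p-value reflects no more than how these particular cultures spread, which may be technical. Myog, the myogenin gene switched on at the start of differentiation, had log2 changes of 7.45 at 25 mM and 7.22 at 5 mM in DM against GM. The proliferation marker Mki67 had log2 changes of −1.56 and −2.60. Myod1 and Des, which mark the myoblast lineage, were both read in all 4 groups, Myod1 at an intensity of 1378 ± 165 in DM and 1131 ± 188 in GM at 5 mM glucose (SD, n = 3 each). The control probe sets for 18S ribosomal RNA split the cultures on MA, which the labels do not explain. They read 11.5 to 19.8 in 4 cultures (1 in DM at 5 mM, 1 in DM at 25 mM and 2 in GM at 5 mM). In the other 8 they read 159 to 908, and the sets are called low-18S and high-18S cultures here. Among the high-18S cultures, DM read 253, 257, 256 and 159 on MA, and GM read 527, 624, 908 and 358. Fits of the high-18S cultures alone, or with the split as a block, thus did not compare the media at like 18S. Intensities within a design had been scaled to a common mean before deposit, so every change is relative to the rest of the array, and less RNA per cell cannot be told apart from fewer cells that make it. The number of arrays limits the precision.

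At 25 mM glucose, 11 of the 39 genes were higher in DM than in GM, 2 were lower and 26 did not pass the test (limma, adjusted p under 0.05 over all tested probe sets of a design). Over all 12135 genes tested, 12.7% were higher and 16.7% lower, 29.4% in all. At 5 mM glucose, 13 of the 39 were higher, 1 was lower and 25 did not pass, beside 9.95% higher and 14.2% lower over all genes, 24.2% in all. The median log2 change of the 39 genes was 0.18 at 25 mM, where that of all genes was −0.11, and 0.34 at 5 mM, where that of all genes was −0.037. The members and the separate lists were chosen with earlier results of these data known. Their counts beside all genes are thus a description and not a test. Rrp9 and Rrp12 passed the intensity minimum only through the DM arrays, so that they had to differ. Without them 9 of 37 members were higher and 2 lower at 25 mM. At 5 mM 12 were higher and 1 lower, and 8 were higher at both levels. The shares over all genes were not recounted without such genes, so these counts have no like share beside them. Centring each array on its median moved the median of all genes at 25 mM to 0.067 and the higher share of all calls to 62.6%, against 43.2% as deposited, and the members then split into 15 higher and 2 lower, beside 17.2% and 10.3% of all genes. With the 8 high-18S cultures alone the counts were 10 higher and 2 lower at 25 mM, beside 12.1% and 14.9% of all genes, and 8 higher and 0 lower at 5 mM, beside 6.94% and 7.70%. GM at 5 mM then had 1 culture, which was assumed to vary like the cultures of the other groups. Of the calls lost there, Nip7 at 25 mM (0.64), and Nip7 (0.62), Wdr43 (0.68) and Wdr74 (0.53) at 5 mM kept log2 changes near those of all 12 cultures. Rrn3 (0.28), Nolc1 (0.22) and Noc4l (−0.42) at 5 mM had smaller ones. Of the 27 calls over both comparisons 15 held under every alternative tried, 12 were lost under at least 1 (Wdr74 at 5 mM only in the high-18S cultures), and 0 changed sign.

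The comparisons at 25 mM and at 5 mM share no culture. Higher in DM at both were 9 genes (Rrn3, Gnl3, Nhp2, Rrp12, Bysl, Rrs1, Nop2, Bop1 and Nip7), which is 81.8% of the 11 called higher at 25 mM and 69.2% of the 13 at 5 mM. Over all genes 966 were higher at both, 62.8% of those at 25 mM and 80.0% of those at 5 mM. Rrp12, among the 9, the 11 and the 13, and Rrp9, among the 11, passed the intensity minimum only through DM. Without them 8 genes were higher at both. Higher at 25 mM and not called at 5 mM were Rrp9 and Heatr1, and higher at 5 mM and not called at 25 mM were Nolc1, Nop58, Wdr43 and Wdr74. Tcof1 and Npm1 were lower at 25 mM and Noc4l at 5 mM, and 21 genes were called in neither comparison. The log2 changes at the 2 glucose levels had the same sign in 35 of the 39 genes (89.7%), beside 71.2% of all genes.

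**Figure D1:**
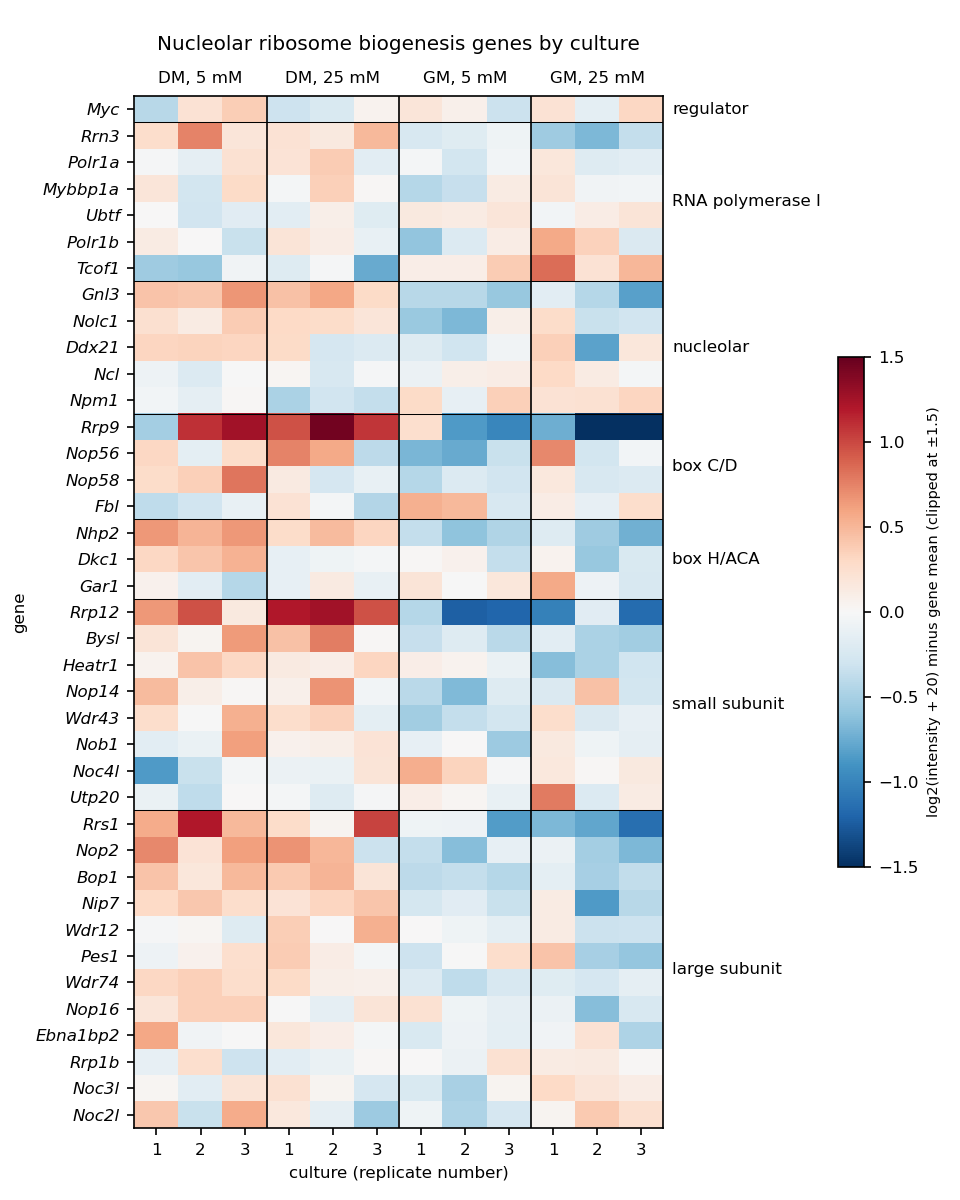
Each row is 1 of the 39 genes, grouped by role, and each column is 1 of 12 cultures; colour gives log2(intensity + 20) minus the gene's mean over the 12 cultures, clipped at −1.5 and 1.5. Rrp9, Rrp12, Gnl3, Nhp2, Rrs1 and Bop1 are red across most DM columns and blue across most GM columns, whereas Tcof1 and Npm1 run the other way.

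**Figure D2:**
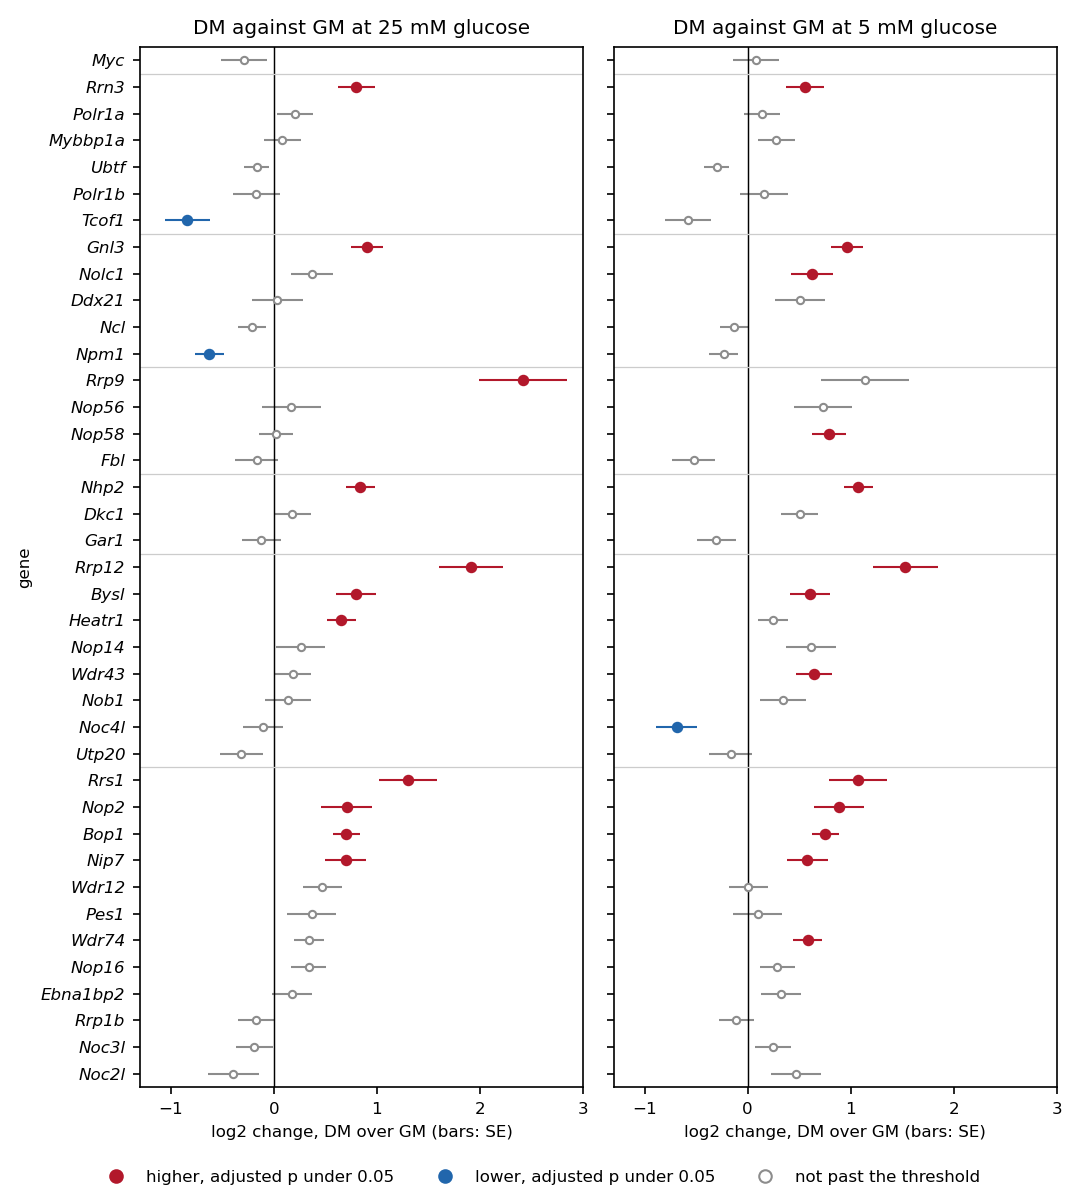
The log2 change of each gene in DM over GM is plotted with its standard error as the bar, at 25 mM glucose on the left and at 5 mM on the right; filled points passed an adjusted p of 0.05. Filled red points (higher) number 11 on the left and 13 on the right, and filled blue points (lower) number 2 and 1.

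Myc binds the E-box CACGTG, and promoter windows of 300 bases (250 before to 50 after the start, RefSeq, GRCm38.p6) were found for 33 of the 40 genes. This palindrome, the same on both strands, lay in a window of 6 of the 33 genes (18.2%). The share was 11.2% of the 10351 tested genes with a window. Counted by window, it lay in 6 of 42 member windows (14.3%), beside 9.42% of windows of tested genes and 7.15% of all 32851 windows. The 6 genes were Nop2, Utp20, Pes1, Mybbp1a, Rrn3 and Wdr43, of which Rrn3 and Nop2 were higher in DM at both glucose levels and Wdr43 at 5 mM. The related letters CACGCG, searched on both strands, lay in 10 of the 33 genes (30.3%), beside 19.0% of tested genes. The GC box GGGCGG lay in 26 (78.8%), beside 65.4%. The median share of G and C was 58.8% over member windows and 52.7% over all windows. The motif lay in 3 of 12 members with a window that were higher in DM at either level (25%). It also lay in 3 of 20 tested members with a window that were not higher (15%). Whether the motif bears on the change was not tested. Only the windows of the 3 higher genes are shown, chosen for holding the motif in genes that rose, with CACGTG in capitals. A match is a description of the letters and not a site. Rrn3 lies at chr16:13780449-13780748 and has the motif at −215 and −48 from its start, Nop2 at chr6:125131633-125131932 with the motif at −60, and Wdr43 at chr17:71615965-71616264 with the motif at 17, all on the plus strand.
Rrn3: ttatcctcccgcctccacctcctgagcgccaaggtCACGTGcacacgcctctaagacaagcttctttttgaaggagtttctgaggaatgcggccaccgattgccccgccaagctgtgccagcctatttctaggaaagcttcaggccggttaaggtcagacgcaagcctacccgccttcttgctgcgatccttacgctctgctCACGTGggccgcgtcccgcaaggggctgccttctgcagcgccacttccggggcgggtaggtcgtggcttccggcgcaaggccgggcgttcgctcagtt
Nop2: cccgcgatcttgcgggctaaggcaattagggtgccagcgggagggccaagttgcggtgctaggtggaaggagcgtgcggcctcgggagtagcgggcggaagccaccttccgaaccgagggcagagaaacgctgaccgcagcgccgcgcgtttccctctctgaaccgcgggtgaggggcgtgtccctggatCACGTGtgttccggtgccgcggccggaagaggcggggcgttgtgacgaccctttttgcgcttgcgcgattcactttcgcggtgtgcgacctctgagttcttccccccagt
Wdr43: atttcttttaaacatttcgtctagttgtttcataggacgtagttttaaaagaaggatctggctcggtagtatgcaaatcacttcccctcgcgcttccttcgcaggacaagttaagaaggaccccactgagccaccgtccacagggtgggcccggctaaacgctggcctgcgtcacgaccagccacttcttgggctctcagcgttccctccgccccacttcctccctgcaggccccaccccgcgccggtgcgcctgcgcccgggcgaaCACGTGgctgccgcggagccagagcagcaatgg

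Myc itself showed no call in any comparison. It read 74.1, 79.0 and 100.5 in DM at 25 mM, against 115, 85.1 and 124 in GM at 25 mM. At 5 mM glucose Myc read 67.0, 116 and 130.5 in DM, against 112, 102 and 73.0 in GM. All 4 groups overlapped. The log2 changes in DM against GM were −0.29 ± 0.23 (SE) at 25 mM (adjusted p = 0.342) and 0.081 ± 0.23 at 5 mM (adjusted p = 0.837), with 95% intervals of −0.78 to 0.19 and −0.40 to 0.57. Of 11 tested genes of the Myc network outside the list, 1 was higher and 3 were lower at 25 mM, and 2 were higher and 2 lower at 5 mM. The shares over all genes, for this list and the Myc targets below, were 12.7% higher and 16.7% lower at 25 mM. At 5 mM they were 9.95% and 14.2%. Mycl, the Myc relative first found amplified in lung cancer, was higher with log2 changes of 3.08 and 3.15 at 25 and 5 mM (adjusted p = 4.79e-07 and 4.05e-07). Mxi1 and Mxd3, whose proteins compete with Myc for its partner Max, were lower at both, with log2 changes of −0.79 and −1.42 for Mxi1 and −1.52 and −1.34 for Mxd3 (adjusted p of 0.000103 to 0.00785 over these 4 values). Of 19 tested Myc targets with roles outside the nucleolus, 3 were higher and 6 lower at 25 mM, and 2 were higher and 3 lower at 5 mM. Among them the transferrin receptor gene Tfrc was higher (0.61 and 1.33), whereas Ranbp1, of nuclear transport, was lower (−0.96 and −0.59) and the cell cycle kinase gene Cdk4 was lower (−0.83 and −0.72).

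Among the 6 genes of RNA polymerase I transcription, Rrn3 was higher in DM at both glucose levels, Tcof1 was lower at 25 mM and the other 4 did not pass. Rrn3, the initiation factor that ties polymerase I to its promoter in response to growth signals, read 125, 118 and 155 in DM at 25 mM, against 66.6, 58.1 and 77.7 in GM at 25 mM. At 5 mM Rrn3 read 130.2, 189 and 122 in DM, against 86.1, 89.6 and 99.8 in GM. Every DM culture lay above every GM culture at the same glucose level. The log2 changes were 0.80 ± 0.18 (SE) at 25 mM (adjusted p = 0.00329) and 0.56 ± 0.18 at 5 mM (adjusted p = 0.0325). The Rrn3 call at 5 mM was lost, with an adjusted p of 0.141 without culture 2 of DM at 5 mM, 0.103 without culture 1 of GM at 5 mM and 0.0885 without culture 2 of GM at 5 mM, and with the high-18S cultures alone its log2 change was 0.28 (adjusted p = 0.513). The same probe set is repeated on MB. There it changed by 1.46 at 25 mM (adjusted p = 0.00796) and by 0.89 at 5 mM (adjusted p = 0.144). This is a repeat reading and not a second probe set. At 25 mM the changes were 0.80 ± 0.18 (SE) on MA and 1.46 ± 0.33 on MB, and their difference was not tested.

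Tcof1 encodes treacle, a nucleolar protein needed for ribosomal DNA transcription. It read 115, 132 and 71.3 in DM at 25 mM, against 255, 159 and 199 in GM at 25 mM. At 5 mM Tcof1 read 86.7, 84.4 and 128 in DM, against 145, 146 and 181 in GM. DM lay below GM without overlap at both levels, and the log2 changes were −0.84 ± 0.22 (SE) at 25 mM (adjusted p = 0.00852) and −0.58 ± 0.22 at 5 mM (adjusted p = 0.0643). A second Tcof1 probe set was also lower at 25 mM (−1.02, adjusted p = 0.01), and the remaining tested one, at −0.63 (adjusted p = 0.0826), did not pass.

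Ubtf, the architectural factor that coats active ribosomal DNA, read 396, 474 and 388 in DM at 25 mM, against 429.6, 480.4 and 509 in GM at 25 mM. At 5 mM Ubtf read 447, 360.1 and 393 in DM, against 494, 485 and 505 in GM, with all 3 DM cultures below the GM cultures at that level. Its log2 changes, −0.17 ± 0.12 (SE) at 25 mM (adjusted p = 0.308) and −0.30 ± 0.12 at 5 mM (adjusted p = 0.0839), did not pass. Mybbp1a, a nucleolar Myb-binding protein with a part in ribosomal RNA processing, read 392, 521 and 405 in DM at 25 mM, against 462, 386 and 388 in GM at 25 mM. At 5 mM Mybbp1a read 458, 326 and 492 in DM, against 292, 312 and 439 in GM. The Mybbp1a groups overlapped at both levels, and its log2 changes were 0.082 and 0.28. Polr1a and Polr1b, the largest catalytic subunits of the polymerase, changed by −0.17 to 0.20 at 25 mM and by 0.14 to 0.16 at 5 mM, and neither passed. In a separate list of 20 tested genes of RNA polymerase I and III, 1 was higher and 3 were lower at 25 mM, and 0 were higher and 2 lower at 5 mM. Over all genes 12.7% were higher and 16.7% lower at 25 mM, and 9.95% and 14.2% at 5 mM. At 25 mM the counts moved with scaling, as did the shares of all genes. They were 4 higher and 2 lower after median centring, beside 17.2% and 10.3% of all genes. After quantile normalisation they were 3 higher and 3 lower, beside 13.5% and 15.6%. The shared subunit gene Polr1c was lower at both (−0.71 and −0.75, adjusted p = 0.000658 and 0.000498), as was Maf1, a repressor of RNA polymerase III (−0.62 and −0.71). Polr1d, another shared subunit gene, was higher at 25 mM (0.73, adjusted p = 0.00063).

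The 5 abundant nucleolar proteins read here split, with Gnl3 higher in DM at both glucose levels, Nolc1 higher at 5 mM and Npm1 lower at 25 mM. Gnl3 encodes nucleostemin, a GTPase known from stem and dividing cells. It read 577, 640.0 and 518 in DM at 25 mM, against 375, 308 and 229.9 in GM at 25 mM. At 5 mM Gnl3 read 574, 564 and 677 in DM, against 311, 311 and 278 in GM. The lowest DM culture lay above the highest GM culture at both levels. On the log2 scale the changes were 0.90 ± 0.16 (SE) at 25 mM (adjusted p = 0.000423) and 0.96 ± 0.16 at 5 mM (adjusted p = 0.000274), or 1.87-fold and 1.95-fold on that scale. Nolc1, a chaperone of small nucleolar particles, read 216, 197 and 240.5 in DM at 5 mM, against 116, 105 and 193 in GM at 5 mM. At 25 mM Nolc1 read 225, 221 and 206 in DM, against 221, 138 and 143 in GM. Its DM cultures lay above the GM cultures at 5 mM, with the third GM culture close to them. The log2 change was 0.63 ± 0.20 (SE), adjusted p = 0.0316 at 5 mM and 0.37 ± 0.20 (SE), adjusted p = 0.179 at 25 mM. The 5 mM call was lost with an adjusted p of 0.073 without culture 1 of DM at 5 mM, 0.104 without culture 3 of DM at 5 mM, 0.121 without culture 1 of GM at 5 mM and 0.142 without culture 2 of GM at 5 mM, and with the high-18S cultures alone it was 0.22 (adjusted p = 0.631).

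Npm1, nucleophosmin, a histone and ribosome chaperone, read 1322, 1506 and 1429.6 in DM at 25 mM, against 2147, 2159.9 and 2296 in GM at 25 mM. At 5 mM Npm1 read 1779, 1666 and 1855 in DM, against 2253, 1684 and 2351 in GM. DM lay below GM without overlap at 25 mM, and the second GM culture fell among the DM values at 5 mM. DM differed from GM by log2 changes of −0.63 ± 0.14 (SE) at 25 mM (adjusted p = 0.00328) and −0.23 ± 0.14 at 5 mM (adjusted p = 0.263). A second Npm1 probe set was lower at both levels (−0.60 and −0.40, adjusted p = 0.00272 and 0.0335). Ncl, nucleolin, an RNA-binding protein of the same compartment, read 1578, 1304 and 1529.5 in DM at 25 mM, against 1913, 1686 and 1520.0 in GM at 25 mM. At 5 mM Ncl read 1470.0, 1335 and 1545 in DM, against 1455, 1638 and 1668 in GM. Its groups overlapped at both levels and its log2 changes of −0.21 and −0.13 did not pass. The helicase gene Ddx21 changed by 0.035 at 25 mM and 0.51 at 5 mM without passing, but its second probe set was higher at both (0.96 and 0.77, adjusted p = 0.0132 and 0.0468).

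Of the 4 box C/D genes, whose particles methylate ribosomal RNA and make its first cuts, Rrp9 was higher in DM at 25 mM and Nop58 at 5 mM. Rrp9, the protein specific to the U3 particle, read 155, 226 and 169.7 in DM at 25 mM, against 34.2, 11.1 and 12.02 in GM at 25 mM. At 5 mM Rrp9 read 43.4, 173 and 195 in DM, against 87.5, 30.0 and 25.9 in GM. The groups stood clear of each other at 25 mM, while the first culture of each medium crossed over at 5 mM. Its log2 changes were 2.41 ± 0.43 (SE) at 25 mM (adjusted p = 0.000496) and 1.14 ± 0.43 at 5 mM (adjusted p = 0.0593). The size of the 25 mM change is not resolved, since it moved between 1.58 with a pseudocount of 64 and 3.36 with 1 and the 3 GM values at 25 mM lay under the mean intensity of 35.5 needed for testing on MA, which the gene passed only through DM.

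Nop58, a core box C/D protein, read 419.9, 446 and 611 in DM at 5 mM, against 249, 293 and 278 in GM at 5 mM. At 25 mM Nop58 read 379, 284 and 314 in DM, against 385, 285 and 293 in GM. The 3 DM cultures at 5 mM were the highest of the 12. In log2 units the differences were 0.021 ± 0.16 (SE) at 25 mM (adjusted p = 0.934) and 0.79 ± 0.16 at 5 mM (adjusted p = 0.002). Nop56, its partner in the core, read 441, 315 and 431 in DM at 5 mM, against 211, 201 and 276 in GM at 5 mM. At 25 mM Nop56 read 604, 531 and 264 in DM, against 594, 289 and 343 in GM. DM lay above GM at 5 mM and overlapped it at 25 mM, and the log2 changes of 0.73 (adjusted p = 0.0689) and 0.17 did not pass. A second Nop56 probe set was higher at 5 mM (0.78, adjusted p = 0.0213). Fbl, fibrillarin, the methyltransferase of these particles, read 392, 421 and 477 in DM at 5 mM, against 759, 735 and 437 in GM at 5 mM. At 25 mM Fbl read 608, 507 and 377 in DM, against 563, 473 and 626 in GM. Its groups overlapped and its log2 changes were −0.17 ± 0.21 (SE) at 25 mM (adjusted p = 0.562) and −0.52 ± 0.21 at 5 mM (adjusted p = 0.0735). A second Fbl probe set gave −0.54 at 25 mM (adjusted p = 0.0385) and 0.19 at 5 mM.

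Of the 3 box H/ACA genes, whose particles turn uridine into pseudouridine, Nhp2 was higher in DM at both glucose levels. Nhp2, a core protein of the particle, read 635, 733 and 656 in DM at 25 mM, against 453, 355 and 308 in GM at 25 mM. At 5 mM Nhp2 read 828, 749.7 and 831 in DM, against 401, 336 and 375 in GM. The lowest of the 6 DM cultures lay above the highest of the 6 GM cultures. The log2 changes were 0.84 ± 0.14 (SE) at 25 mM (adjusted p = 0.000263) and 1.08 ± 0.14 at 5 mM (adjusted p = 3.17e-05), and a second probe set gave 0.88 and 1.12. Dkc1, dyskerin, the pseudouridine synthase, was read on MB at 1848, 1988 and 2142 in DM at 5 mM, against 1502, 1563 and 1160.2 in GM at 5 mM. At 25 mM Dkc1 read 1371, 1421 and 1456 in DM, against 1545, 996 and 1266 in GM. All 3 DM cultures at 5 mM exceeded the other 9, but the log2 changes of 0.50 (adjusted p = 0.125) and 0.18 did not pass. Gar1, the remaining core protein, changed by −0.12 and −0.30 without passing. Among 24 tested snoRNP and cleavage factors of a separate list, 2 were higher and 4 lower at 25 mM, and 1 was higher and 4 lower at 5 mM. The lower share was 16.7% at each level, beside 16.7% of all genes at 25 mM and 14.2% at 5 mM. Higher were 12.7% and 9.95% of all genes. The exosome subunit gene Exosc9 was higher at both (0.87 and 1.24) and Exosc1 at 25 mM (0.86), whereas Trmt112, a partner of several methyltransferases, was lower at both (−0.51 and −0.42).

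Small subunit factors numbered 8, of which 3 were higher at 25 mM (Rrp12, Bysl and Heatr1), and 3 were higher (Rrp12, Bysl and Wdr43) and 1 lower (Noc4l) at 5 mM. Rrp12, needed for maturation and export of subunit precursors, read 106, 111 and 85.8 in DM at 25 mM, against 7.11, 28.7 and 4.65 in GM at 25 mM. At 5 mM Rrp12 read 66.3, 85.9 and 40.8 in DM, against 20.7, 3.45 and 4.07 in GM. All 6 DM cultures lay above all 6 GM cultures, and every GM value was under the minimum mean intensity of 35.5, which the gene passed only through DM. On the log2 scale the changes were 1.92 ± 0.31 (SE) at 25 mM (adjusted p = 0.00025) and 1.53 ± 0.31 at 5 mM (adjusted p = 0.00174). Their size is not resolved, since it depended on the pseudocount, from 1.10 with 64 to 3.19 with 1 at 25 mM and from 0.80 to 2.99 at 5 mM, and the call says no more than that the DM values stood above dim GM values.

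Bysl, bystin, a factor that stays with the subunit precursor until late, read 322, 407 and 235 in DM at 25 mM, against 205, 161 and 155 in GM at 25 mM. At 5 mM Bysl read 267, 238 and 372 in DM, against 177, 199 and 169.8 in GM. DM exceeded GM without overlap at both levels, and the log2 changes were 0.79 ± 0.20 (SE) at 25 mM (adjusted p = 0.00562) and 0.61 ± 0.20 at 5 mM (adjusted p = 0.0299). The 5 mM call was lost with an adjusted p of 0.143 without culture 3 of DM at 5 mM, 0.083 without culture 1 of GM at 5 mM and 0.0774 without culture 3 of GM at 5 mM, while a second Bysl probe set was higher by 0.89 and 0.91. Heatr1, a large scaffold protein of the early processome, read 230.4, 225 and 266 in DM at 25 mM, against 127, 144 and 166 in GM at 25 mM. At 5 mM Heatr1 read 218, 287 and 263 in DM, against 225, 217 and 193 in GM. The lowest group was GM at 25 mM, below the other 3 groups without overlap. DM differed from GM by log2 changes of 0.65 ± 0.14 (SE) at 25 mM (adjusted p = 0.00245) and 0.25 ± 0.14 at 5 mM (adjusted p = 0.227), and its probe set on MB gave 0.42 at 25 mM (adjusted p = 0.643).

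Wdr43, a processome protein, read 318, 261 and 389.5 in DM at 5 mM, against 178, 200.1 and 213 in GM at 5 mM. At 25 mM Wdr43 read 319.9, 338 and 236 in DM, against 319, 223 and 239 in GM. DM lay above GM at 5 mM and overlapped it at 25 mM. In log2 units the differences were 0.18 ± 0.18 (SE) at 25 mM (adjusted p = 0.453) and 0.65 ± 0.18 at 5 mM (adjusted p = 0.0127), and the 5 mM call was lost with an adjusted p of 0.0663 without culture 3 of DM at 5 mM and 0.057 without culture 1 of GM at 5 mM. Noc4l, a partner of Nop14 in small subunit export, read 110.0, 166 and 210.1 in DM at 5 mM, against 321, 275 and 212 in GM at 5 mM. At 25 mM Noc4l read 200.3, 198 and 248 in DM, against 241, 217 and 239 in GM. DM lay below GM at 5 mM, with the third cultures of both media nearly level. The log2 change at 5 mM was −0.69 ± 0.20 (SE), adjusted p = 0.016, lost with an adjusted p of 0.0834 without culture 1 of DM at 5 mM, 0.0843 without culture 1 of GM at 5 mM and 0.052 without culture 2 of GM at 5 mM. The 3 other tested Noc4l probe sets gave −0.051, 0.16 and −0.44 at 5 mM and none passed. Nob1, the endonuclease that makes the last cut in small subunit RNA, was read on MB at 630.4, 657 and 1091 in DM at 5 mM, against 645, 708 and 477 in GM at 5 mM. At 25 mM Nob1 read 741, 751 and 820.0 in DM, against 784, 672 and 643 in GM. Its groups overlapped, and its log2 changes of 0.34 and 0.14 did not pass. Nop14 and Utp20 did not pass either, with log2 changes at 25 mM of 0.26 and −0.31 and at 5 mM of 0.61 (adjusted p = 0.0716) and −0.16. The DM values of Nop14 at 5 mM, 149, 109 and 103, lay above its GM values of 71.6, 56.5 and 86.1 without overlap. In a separate list of 51 small subunit factors, 10 were higher and 1 lower at 25 mM, and 8 were higher and 2 lower at 5 mM (5 and 1 in high-18S cultures alone). Over all genes 12.7% were higher and 16.7% lower at 25 mM, and 9.95% and 14.2% at 5 mM. The small subunit maturation factors Tsr1 (1.09 and 1.27), Pno1 (1.19 and 0.76) and Ltv1 (0.85 and 1.04) were higher at both glucose levels.

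Among 12 large subunit factors, Rrs1, Nop2, Bop1 and Nip7 were higher in DM at both glucose levels, Wdr74 was higher at 5 mM, and 0 were lower. Rrs1, which helps bring the small ribosomal RNA of the large subunit into place, read 176, 146 and 306 in DM at 25 mM, against 81.8, 74.1 and 53.7 in GM at 25 mM. At 5 mM Rrs1 read 218, 353 and 206 in DM, against 135, 134 and 70.6 in GM. All 6 DM cultures lay above all 6 GM cultures, and within DM the highest culture at each glucose level was the low-18S one. The log2 changes were 1.30 ± 0.28 (SE) at 25 mM (adjusted p = 0.0022) and 1.07 ± 0.28 at 5 mM (adjusted p = 0.00946). Its probe set on MB gave 1.31 at 25 mM (adjusted p = 0.00992) and 0.77 at 5 mM (adjusted p = 0.19).

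Bop1 joins Pes1 and Wdr12 in a complex that acts on the large subunit precursor. It read 773, 839 and 671 in DM at 25 mM, against 526, 408 and 446 in GM at 25 mM. At 5 mM Bop1 read 792, 656 and 822 in DM, against 438, 451 and 428 in GM. All 6 DM cultures lay above all 6 GM cultures, and the log2 changes were 0.70 ± 0.13 (SE) at 25 mM (adjusted p = 0.000772) and 0.75 ± 0.13 at 5 mM (adjusted p = 0.000509). Its partners did not pass, with 0.37 and 0.098 for Pes1 and 0.47 and 0.0084 for Wdr12. Nop2 encodes a cytosine methyltransferase of large subunit RNA. It read 413, 365 and 198 in DM at 25 mM, against 237, 171 and 149.9 in GM at 25 mM. At 5 mM Nop2 read 430.0, 293 and 395 in DM, against 193, 154 and 231 in GM. DM exceeded GM without overlap at 5 mM, while the third DM culture fell within the GM range at 25 mM. On the log2 scale the changes were 0.71 ± 0.24 (SE) at 25 mM (adjusted p = 0.0363) and 0.89 ± 0.24 at 5 mM (adjusted p = 0.0133). The 25 mM call was lost with an adjusted p of 0.151 without culture 1 of DM at 25 mM, 0.121 without culture 2 of DM at 25 mM, 0.0977 without culture 2 of GM at 25 mM and 0.132 without culture 3 of GM at 25 mM. The 5 mM call was lost with an adjusted p of 0.0593 without culture 1 of DM at 5 mM and 0.063 without culture 2 of GM at 5 mM.

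Nip7, an RNA-binding factor of large subunit processing, read 156, 171 and 184 in DM at 25 mM, against 146, 64.8 and 94.6 in GM at 25 mM. At 5 mM Nip7 read 168, 183 and 164 in DM, against 107, 115 and 101 in GM. The DM cultures lay above the GM cultures at both levels. DM differed from GM by log2 changes of 0.70 ± 0.20 (SE) at 25 mM (adjusted p = 0.0142) and 0.58 ± 0.20 at 5 mM (adjusted p = 0.0415). The 25 mM call was lost with an adjusted p of 0.065 without culture 2 of GM at 25 mM. At 5 mM the call was lost with an adjusted p of 0.0858 without culture 1 of DM at 5 mM, 0.0934 without culture 2 of DM at 5 mM, 0.0745 without culture 3 of DM at 5 mM, 0.0516 without culture 1 of DM at 25 mM, 0.0537 without culture 2 of DM at 25 mM, 0.0999 without culture 1 of GM at 5 mM, 0.0725 without culture 2 of GM at 5 mM, 0.0975 without culture 3 of GM at 5 mM and 0.0525 without culture 3 of GM at 25 mM. A second Nip7 probe set gave 0.45 (adjusted p = 0.237) at 25 mM and 0.39 (adjusted p = 0.348) at 5 mM and did not pass. Wdr74, a partner of a remodelling ATPase, read 140.2, 146 and 135 in DM at 5 mM, against 92.2, 79.6 and 89.4 in GM at 5 mM. At 25 mM Wdr74 read 137, 118 and 117 in DM, against 93.6, 88.5 and 97.7 in GM. DM lay above GM without overlap at both levels, with log2 changes of 0.34 ± 0.14 (SE) at 25 mM (adjusted p = 0.0757) and 0.58 ± 0.14 at 5 mM (adjusted p = 0.00615). In high-18S cultures alone the 5 mM change was 0.53 (adjusted p = 0.15). The other 5 genes, Nop16, Rrp1b, Noc2l, Noc3l and Ebna1bp2, changed by −0.40 to 0.34 at 25 mM and by −0.11 to 0.47 at 5 mM, and none passed. In a separate list of 44 tested large subunit factors, 9 were higher and 1 lower at 25 mM, and 8 were higher and 1 lower at 5 mM. Over all genes 12.7% were higher and 16.7% lower at 25 mM, and 9.95% and 14.2% at 5 mM. After median centring 17.2% of all genes were higher and 10.3% lower at 25 mM. Median centring gave 18 higher and 0 lower at 25 mM, and the high-18S cultures alone gave 4 higher and 1 lower at 5 mM. Brix1 (0.95 and 0.60) and Nifk (0.57 and 1.13), both bound to large subunit precursors, were higher at both levels, and Rpf2, a partner of Rrs1, was higher at 5 mM (0.98).

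**Figure D3:**
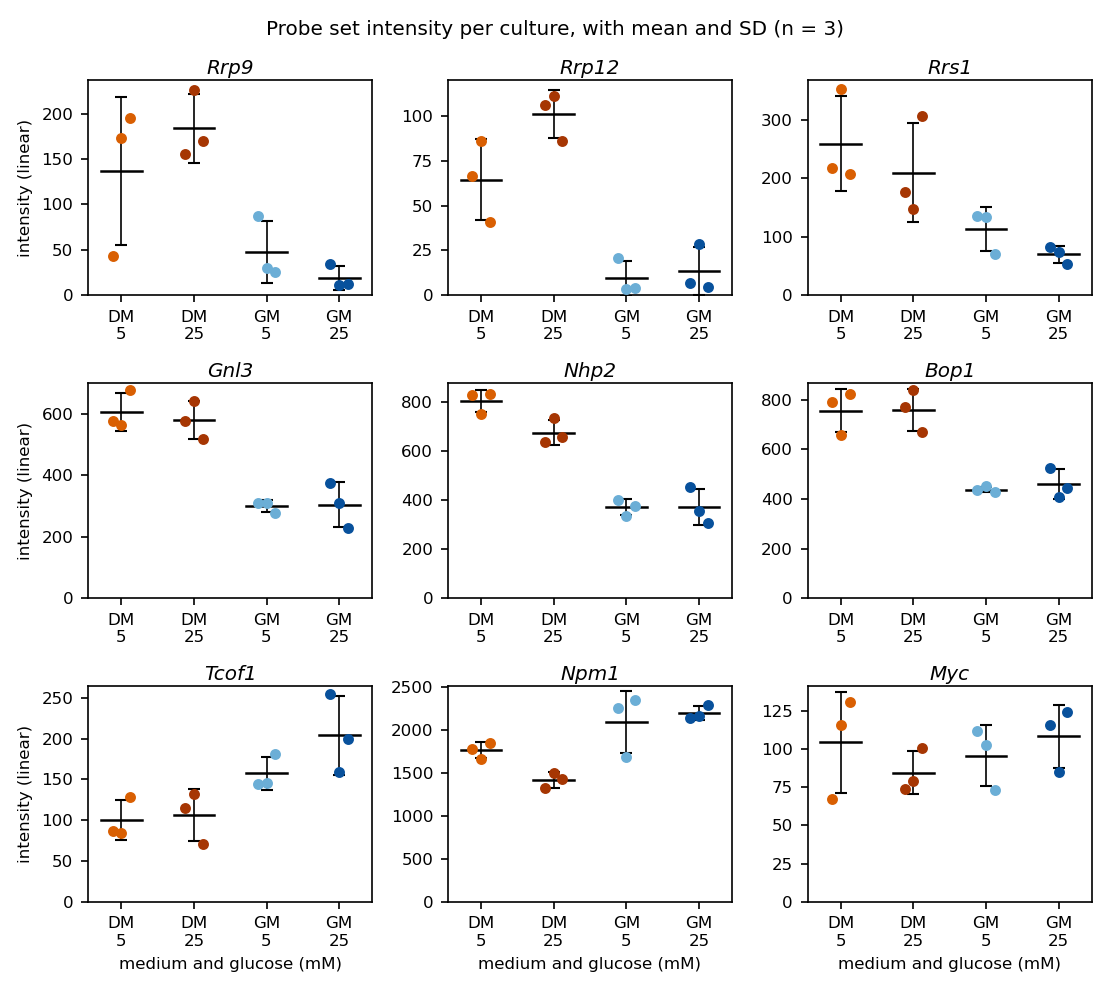
Points give the linear intensity of 1 probe set per gene in each culture, with DM groups left of GM groups and the horizontal bar and whiskers showing mean and SD of 3 cultures. Rrp9, Rrp12, Rrs1, Gnl3, Nhp2 and Bop1 sit higher in DM, Tcof1 and Npm1 lower in DM at 25 mM, and the 4 groups of Myc overlap.

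Of the 39 genes 0 passed the threshold for glucose in limma, in either medium or in the interaction, and these counts stayed at 0 under each of the 12 alternatives and in each fit that left out 1 culture. These comparisons use the same cultures as the medium comparisons. For 5 mM against 25 mM in GM, 3 of the 39 had an unadjusted p under 0.05, beside 1157 of all 12135 genes. In DM 3 of the 39 had an unadjusted p under 0.05, beside 1191 of all genes. For the interaction 2 did so, beside 1349 of all genes. After adjustment 0.00824% of all genes were called in GM, 1.43% in DM and 0.494% in the interaction. The 95% interval of the log2 change lay within 2-fold either way for 35 of 39 genes in GM, for 37 in DM and for 25 in the interaction. The members' medians were −0.056 in GM and −0.00021 in DM, beside −0.0069 and 0.011 for all genes.

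The largest glucose change in GM was that of Rrp9, 0.73 ± 0.43 (SE), adjusted p = 0.51, with GM at 5 mM at 87.5, 30.0 and 25.9 and GM at 25 mM at 34.2, 11.1 and 12.02. Those groups overlapped, and all values at 25 mM lay under the minimum mean. In the same medium Heatr1 (0.49), Nop56 (−0.73) and Noc3l (−0.42) had an unadjusted p under 0.05, with adjusted p of 0.404 to 0.448. In DM the largest was Nop58, 0.56 ± 0.16 (SE), adjusted p = 0.137, with DM at 5 mM at 419.9, 446 and 611 and DM at 25 mM at 379, 284 and 314. Every Nop58 value at 5 mM exceeded every one at 25 mM in that medium. Dkc1 (0.49) and Npm1 (0.31) also had an unadjusted p under 0.05 in DM. In the interaction the largest value was Rrp9 at −1.28 ± 0.60 (SE), adjusted p = 0.416, with a 95% interval of −2.57 to 0.014 and the same dim GM values in it. Nop58 (0.77, adjusted p = 0.214) and Noc2l (0.87, adjusted p = 0.35) had an unadjusted p under 0.05. The interaction median of the members was 0.15 as deposited but −0.016 after median centring, when that of all genes moved from 0.016 to −0.14.

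**Figure D4:**
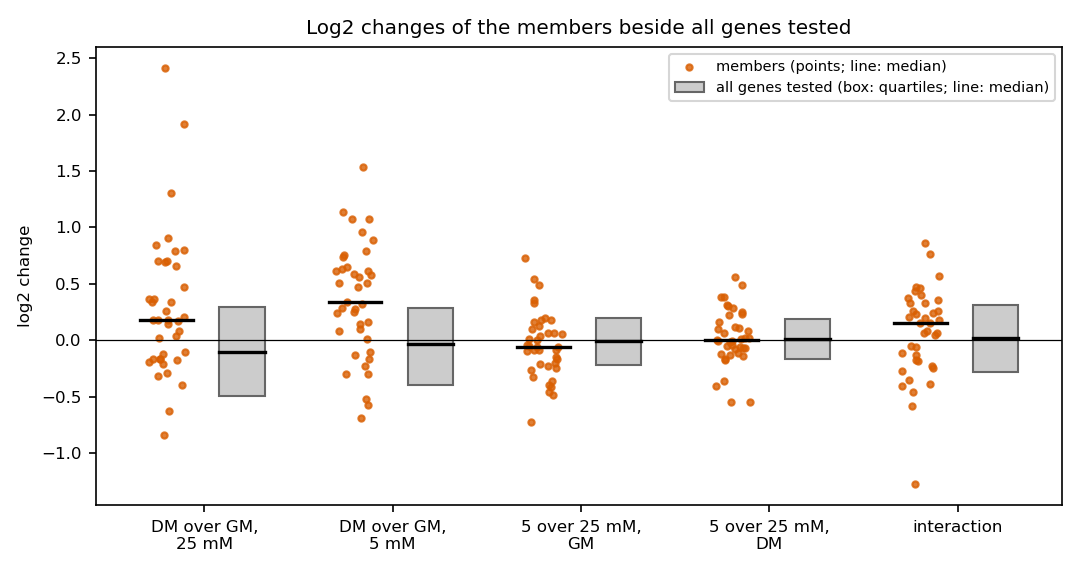
Points are the log2 changes of the 39 genes in each of 5 comparisons, with their median as a line, and the box beside them spans the quartiles of all 12135 genes tested. In DM over GM the members' medians of 0.18 at 25 mM and 0.34 at 5 mM lie above the medians of all genes, and in the glucose comparisons both medians lie near 0.

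Across cultures, the median of the 39 genes, each centred on its own mean, was 0.18, 0.066 and 0.27 in DM at 5 mM and 0.20, 0.10 and −0.015 in DM at 25 mM. In GM the 5 mM cultures had −0.20, −0.19 and −0.14, and the 25 mM cultures had 0.12, −0.22 and −0.21. The first GM culture at 25 mM thus stood apart from the other 2 of its group and among the DM cultures. Without it, 13 members were higher and 2 lower in DM at 25 mM, beside 11.2% and 14.1% of all genes, with a median of 0.32. The third DM culture at 25 mM, the lowest of DM, is a low-18S one. With the 18S split as a block the members' medians were 0.28 at 25 mM and 0.35 at 5 mM, with 12 higher and 2 lower at 25 mM, beside 14.8% and 19.4% of all genes, and 15 higher and 3 lower at 5 mM, beside 12.5% and 16.8%. Proliferation genes had culture medians of −0.60 to −0.34 in DM and 0.20 to 0.75 in GM. Of 15 tested proliferation genes 0 were higher and 13 lower at 25 mM, and 0 were higher and 9 lower at 5 mM, among them the mitotic cyclin gene Ccnb2 (−1.94 and −2.82) and the topoisomerase gene Top2a (−1.48 and −2.10). All 9 muscle differentiation genes were higher at both levels, among them Tnnc2, Mymk and Myh3 of the contractile and fusion machinery, with log2 changes of 8.17, 6.93 and 7.24 at 25 mM.

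**Figure D5:**
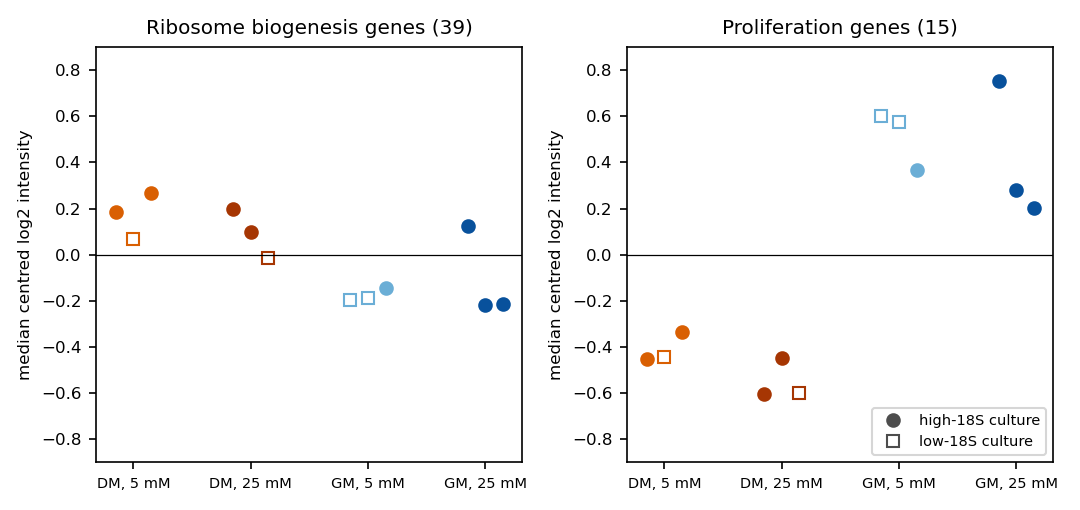
The left panel gives the median over the 39 genes, and the right panel the median over 15 proliferation genes, of log2(intensity + 20) centred per gene, with 1 point per culture; open squares are low-18S cultures. DM cultures lie at −0.015 to 0.27 on the left and at −0.60 to −0.34 on the right, and 1 GM culture at 25 mM reaches 0.12 on the left.

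The summed intensity of the adipocyte markers was lower in DM at both glucose levels. Of 5 adipocyte markers 2 lay above the minimum intensity, and the summed intensity of the 5 was 120 to 188 in DM at 5 mM and 91.2 to 139 in DM at 25 mM, against 379 to 471 in GM at 5 mM and 405 to 503 in GM at 25 mM. Cebpa was lower in DM (−1.91 and −2.04), and Lpl was lower at 25 mM (−1.13). Of 6 blood and endothelial markers 3 lay above the minimum, and Cd14 was lower in DM (−1.51 and −1.05). Their sum was 136 to 229 in DM at 5 mM and 136 to 161 in DM at 25 mM, against 208 to 249 in GM at 5 mM and 291 to 321 in GM at 25 mM. The ranges of DM and GM met at 5 mM and not at 25 mM. Of 3 osteoblast markers 1 lay above the minimum and was not called, with sums of 96.2 to 237 in DM at 5 mM and 82.5 to 178 in DM at 25 mM, against 93.1 to 192 in GM at 5 mM and 177 to 297 in GM at 25 mM, so that DM and GM overlapped at both levels. None of the summed lists was at 0, and their part in the result was not tested.

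Other tested probe sets of the same genes numbered 31, for 23 of the 39. For Rrn3 the other one is the same probe set repeated on MB. Their log2 change had the sign of the chosen probe set in 21 of 31 cases at 25 mM and in 25 at 5 mM. At 25 mM 5 of them were higher and 3 lower, and at 5 mM 5 were higher and 1 lower. Of the called values, 8 of 13 at 25 mM and 8 of 14 at 5 mM belonged to genes with another tested probe set. Another one passed in the same direction for 6 at 25 mM and for 3 at 5 mM. Rrn3 is among the 6 at 25 mM only through the repeat on MB. Signs also differed between probe sets of genes that were not called, among them Ncl, Ebna1bp2, Noc3l and Polr1a. Probe sets of one gene can read different transcript ends, so a value from 1 probe set is uncertain for genes whose probe sets differ in sign or in call.

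Some members also carry small nucleolar RNAs, which are cut from their introns in many vertebrate genes. In the RefSeq annotation of GRCm38.p6, 18 snoRNA genes lay inside 6 of the 40 genes (15%), beside 2.21% of the 11953 tested protein-coding genes. The 6 were Nop56 with 5, Nop58 with 4, Gnl3 and Wdr43 with 3 each, Ncl with 2 and Dkc1 with 1. Of these hosts, Gnl3 was higher in DM at both glucose levels, Nop58 and Wdr43 at 5 mM, and Nop56, Ncl and Dkc1 were not called. The arrays read the host transcripts and not the snoRNAs. The 40 genes lie on 19 chromosomes, and the closest neighbours, Npm3 and Nolc1 on chromosome 19, are 326281 bases apart.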

How the data were processed

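Total RNA from C2C12 cultures was hybridised to 2 Affymetrix mouse array designs. The authors deposited 1 linear intensity per probe set and array; the values show a trimmed mean of 149.984 to 149.988 on every MA array and of 149.97 to 149.982 on every MB array, and the software that made them is not given in the sources used here. The median array intensity ranged over 48.7 to 61.2 for MA, and over 69.0 to 96.5 for MB. No arrays held identical values. Each design was fitted by itself with limma 3.58.1 in R 4.3.3 (lmFit and eBayes with trend, two-sided) on log2(intensity + 20) with 4 group means, over probe sets whose mean exceeded the design's 40th percentile (35.5 on MA, 63.7 on MB), leaving 13575 and 13506. Benjamini-Hochberg adjustment ran within a design and 0.05 was the threshold. A fold change on this scale understates the change of dim probe sets.

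The members and lists were chosen with earlier results of these data known. Values in every culture are given for Myc, for the 2 brightest members and the called member with the largest change of each role, for the largest change in each comparison, and for the other called members, which were added after their values were seen. From other lists the counts and up to 3 members with the smallest p are named. The fit was also run on simulated MA values with independent noise and no 18S split. The outcome is not reported here, and no conclusion is drawn from it. Alternatives were quantile normalisation, a filter at the 60th percentile or none, pseudocounts of 1 or 64, median centring, eBayes without trend, a replicate block, the 18S split as a block, high-18S cultures alone, MB preferred, specific probe set types alone, and leaving out each culture.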

Additional observations from a re-analysis of the deposited data

How the results depend on the processing

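Over the 27 calls of the medium comparisons and the alternatives and left-out cultures that could be run for each, 592 values kept direction and call and 49 kept direction but not the call. All 27 held with a pseudocount of 1 or 64, quantile normalisation, median centring and the 18S block. The block by replicate number kept 24, with 11 higher and 2 lower at 25 mM, beside 11.8% and 15.5% of all genes. At 5 mM it gave 10 higher and 1 lower, beside 9.03% and 12.9%. Deviations of same-numbered cultures correlated at r = −0.56 to 0.52 on MA and over 0.1 in 3 of 18 pairs. The number was therefore not treated as a pairing. The 3 lost under that block were Rrn3, Bysl and Nip7 at 5 mM, with adjusted p of 0.0501 to 0.0623. Without a filter Nop2 at 25 mM and Rrn3 and Nip7 at 5 mM were lost, without trend Nop2 at 25 mM, and with MB preferred 4 of 25 calls, Heatr1 at 25 mM and Rrn3, Noc4l and Rrs1 at 5 mM. The lower count at 5 mM was 2 with quantile normalisation, 3 with the 18S block, 0 in high-18S cultures alone and 0 with MB preferred, where 35 genes were tested, and 0 to 3 when 1 culture was left out. The higher count at 5 mM was 8 in high-18S cultures alone and 9 to 15 when 1 culture was left out. At 25 mM, leaving out 1 culture gave 9 to 13 higher and 2 lower. The cause was not tested. Dim values limit Rrp12 and Rrp9 most, whose GM intensities lay largely under the minimum mean.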

Other observations

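The cytosolic ribosomal protein genes, whose products are assembled with ribosomal RNA, had few calls as deposited. Of 79 listed, 44 had a probe set of their own and 43 were tested. In DM 0 were higher and 1 was lower at each glucose level. Over all genes 12.7% were higher and 16.7% lower at 25 mM, and 9.95% and 14.2% at 5 mM. Log2 changes at 25 and 5 mM were −0.55 and −0.50 for Rps25, −0.55 and −0.14 for Rpl10a and −0.51 and −0.086 for Rpl7. The list's median log2 change was −0.38 at 25 mM, with 39 of 43 below 0, and 0.15 at 5 mM, with 11 below 0. With the 18S split as a block it was −0.14 and −0.13. That block gave 0 higher and 10 lower of 43 at 25 mM, beside 14.8% and 19.4% of all genes. At 5 mM the block gave 1 higher and 7 lower, beside 12.5% and 16.8% of all genes. Quantile normalisation gave 13 lower at 25 mM and 5 at 5 mM, beside 15.6% and 13.4% of all genes.

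Per culture, the median of these genes centred on their own means was −0.51 in the low-18S DM culture at 5 mM, −0.53 in that at 25 mM, and −0.29 and −0.41 in both low-18S GM cultures at 5 mM, against 0.023 to 0.35 in the 8 high-18S cultures. For 5 mM against 25 mM in GM the list's median was −0.33 with 40 of 43 below 0, but 0.11 with the 18S block. The interaction median of the list was 0.48 with 2 below 0, but 0.035 with the 18S block and 0.11 in high-18S cultures alone.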
